A study of Mus musculus with 33 samples.

Results

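The last step of reprogramming in cells without the SSEA1 antigen was described here from 6 of the 33 libraries of the series: 3 of SSEA1- cells at the induced pluripotent stem (iPS) stage and 3 of SSEA1- cells at day 12. They were taken by their titles, and all genes of their count files entered the test. Both groups were mouse cells of strain 129SV/Jae/C57BL6J that had started as embryonic fibroblasts (MEFs), were reprogrammed in embryonic stem cell medium with dox (doxycycline) and AA (ascorbic acid), and were then trypsinised, stained and sorted by flow cytometry. The other groups of the series were MEFs, SSEA1- cells of days 3, 6 and 9, and SSEA1+ cells of days 3, 6, 9 and 12 and of the iPS stage, with 3 libraries each. The labels give neither the transgenes that drove reprogramming nor the age of the iPS-stage cultures, nor whether dox was still present in them. Nothing in them ties the replicates to separate cultures or animals. The p-values therefore measure only the spread between libraries of a group, which may be technical. That spread was pooled over all 33 libraries and is not that of the 6 libraries alone. As the iPS SSEA1- libraries were less alike than the d12 SSEA1- libraries, the pooled spread may be too small for them.

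SSEA1 is a carbohydrate antigen on the surface of mouse pluripotent cells, made by fucosyltransferases. During reprogramming of fibroblasts it appears on a minority of cells, which are known to be richer in cells that go on to form iPS colonies. The negative fraction holds cells that stalled on the way and cells that took other paths. In a mouse iPS culture it is also known to hold cells that have left the pluripotent state, since differentiating pluripotent cells lose the antigen. Poly-A RNA of a sorted fraction is a mean over all its cells, so that fewer cells of a type and less RNA per cell cannot be told apart here.

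The 6 libraries held 17.17 to 28.36 M reads in genes, and the 3 iPS SSEA1- libraries were less alike than the 3 d12 SSEA1- libraries. Across genes, Pearson's r of log2 CPM (read counts scaled to a common library size) was 0.965, 0.932 and 0.934 between iPS replicates 1 and 2, 1 and 3, and 2 and 3, against 0.979 to 0.983 between d12 replicates. Replicate 3 stood apart from the other two iPS libraries. Its r with the mean profile of iPS SSEA1+ cells was 0.883, against 0.802 for iPS replicate 1 and 0.765 for iPS replicate 2. Below, the CPM of a gene are always given in the order of replicates 1, 2 and 3 of each group, scaled by TMM. Fold changes are iPS SSEA1- over d12 SSEA1-, on the log2 scale with a standard error, from edgeR's quasi-likelihood test over all 33 libraries. A call needed an adjusted p under 0.05 together with a change of 2-fold or more. Where the values of the lower group lie well under 1 CPM they rest on few reads, and the size of the fold change is uncertain. "Rose" and "fell" are used of called genes.

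Markers of the labelled cells were checked first. Thy1, a surface glycoprotein of fibroblasts, had 267, 812 and 621 CPM in iPS SSEA1- replicates 1, 2 and 3, against 462, 704 and 557 CPM in d12 SSEA1- replicates 1, 2 and 3 (log2 fold change -0.02 ± 0.47, adjusted p = 0.99). The same gene had 7.91, 6.85 and 10.9 CPM in the 3 iPS SSEA1+ libraries. Fut9, the fucosyltransferase known to make SSEA1 in mouse embryonic cells, had 3.74, 3.59 and 13.3 CPM in iPS SSEA1- cells, against 9.95, 12.2 and 11.6 CPM in d12 SSEA1- cells, and 35.5, 50.5 and 20.9 CPM in iPS SSEA1+ cells. Replicate 3 was thus the highest of the iPS SSEA1- libraries in Fut9 while its Thy1 lay between those of the other two. Nanog, a core transcription factor of pluripotency, had 21.4, 59.5 and 441 CPM in iPS SSEA1- cells, against 9.24, 44 and 22.4 CPM in d12 SSEA1- cells, and 975, 627 and 1437 CPM in iPS SSEA1+ cells. Nanog in iPS SSEA1- replicate 3 thus exceeded that of every other SSEA1- library here, although the library is labelled SSEA1-. Most results that rest on this library, but not all, are given with and without it.

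A second difference ran across both groups. Lyz2, which encodes the lysozyme of macrophages, had 1.68, 396 and 3.61 CPM in iPS SSEA1- cells, against 2.06, 247 and 17.4 CPM in d12 SSEA1- cells, and Mrc1, a mannose receptor of macrophages, had 0.72, 203 and 0.112 CPM in iPS SSEA1- cells, against 0.483, 52.6 and 3.5 CPM in d12 SSEA1- cells. Both genes were far higher in replicate 2 of each group than in its other two libraries. Of 16 tested members of the blood and macrophage list, 1 rose (Gata1) and 1 fell (Laptm5), 13 had their highest iPS SSEA1- value in replicate 2, and the members summed to 48.6, 681 and 90.4 CPM in iPS SSEA1- cells and 536, 709 and 538 CPM in d12 SSEA1- cells. Laptm5, described further below, made up most of the sums of d12 replicates 1 and 3. With replicate 2 of both groups left out, a choice made after seeing these values, 585 genes rose (3.3%) and 377 fell (2.13%).

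Between day 12 and the iPS stage 817 of 17326 tested genes rose (4.72%) and 433 fell (2.5%) in SSEA1- cells. The decreases were shared by all 3 iPS libraries more often than the increases. In 430 of the 433 genes that fell, all 3 iPS SSEA1- libraries lay below all 3 d12 SSEA1- libraries, against 9.75% of all tested genes. In 634 of the 817 genes that rose, all 3 iPS libraries lay above, against 12.5% of all tested genes. The range of log2(CPM + 1) over the 3 iPS libraries had a median of 1.41 for genes that rose and 0.71 for genes that fell, where all tested genes gave 0.71. Over the 3 d12 libraries these medians were 0.37, 0.63 and 0.41. Of the called genes, 80 that rose and 153 that fell had groups that did not overlap and a range under 0.5 over the iPS libraries. The highest iPS library was replicate 3 for 515 of the genes that rose (63.0%), replicate 1 for 221 (27.1%) and replicate 2 for 81 (9.91%). Over all tested genes those shares were 42.2, 29.0 and 28.9%.

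The size of this list depended on what else was in the model and on single libraries. A fit of the 6 libraries alone, whose spread is not shared with the other groups, called 44 increases (0.282%) and 152 decreases (0.973%) among 15625 genes, of which 41 and 149 were among those above. DESeq2 called 1012 (5.84%) and 539 (3.11%), limma voom with sample quality weights 655 (3.78%) and 298 (1.72%), and edgeR with replicate numbers as a block 1061 (6.12%) and 554 (3.2%). With iPS SSEA1- replicate 1 left out the counts were 850 (4.8%) and 412 (2.33%), and with iPS SSEA1- replicate 2 left out 884 (4.98%) and 478 (2.69%). With iPS SSEA1- replicate 3 left out they were 601 (3.37%) and 469 (2.63%), and 380 of the 817 and 311 of the 433 were called again. Leaving out any 1 of the d12 libraries gave fewer calls in both directions than leaving out any 1 of the iPS libraries. The counts were 312 (1.75%) and 301 (1.69%) without d12 SSEA1- replicate 1, 522 (2.93%) and 389 (2.18%) without d12 SSEA1- replicate 2, and 232 (1.3%) and 246 (1.38%) without d12 SSEA1- replicate 3. The median log2 fold change over all tested genes was 0.106, and changes are to be read against that shift.

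Earlier steps in SSEA1- cells show how this one compares in size, as a description, since neighbouring steps share libraries. At day 6 against day 3, 805 genes were called higher (4.65%) and 214 lower (1.24%). At day 9 against day 6, edgeR called 0 genes in either direction, with 255 higher and 219 lower at an unadjusted p under 0.05 and no fold minimum. At day 12 against day 9, 12 genes were called higher (0.0693%) and 0 lower. By the same test, calls were thus few between days 6 and 12 and numerous before and after.

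As a group the genes that fell were low in MEFs and high through reprogramming. They were chosen by their day 12 and iPS levels in SSEA1- cells, in a fit that used all stages, and neighbouring stages have similar profiles. Their levels in the other stages are therefore a description that is not independent of the choice. Their median log2(CPM + 1) was 1.73 in MEFs, 3.80, 4.73, 5.11 and 5.12 in SSEA1- cells of days 3, 6, 9 and 12, and 2.89 at the iPS stage. In SSEA1+ cells of days 3, 6, 9, 12 and the iPS stage it was 4.23, 5.10, 5.05, 3.74 and 2.29. At day 12 the SSEA1+ libraries thus lay below the SSEA1- libraries. Of the 433 genes, 318 (73.4%) had a mean at least 2-fold higher in day 3 SSEA1- cells than in MEFs, against 24.3% of all tested genes. Each of the 12 largest decreases among named genes of at least 10 CPM was called without any 1 of the 6 libraries and in the fit of the 6 libraries alone.

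**Figure D1:**
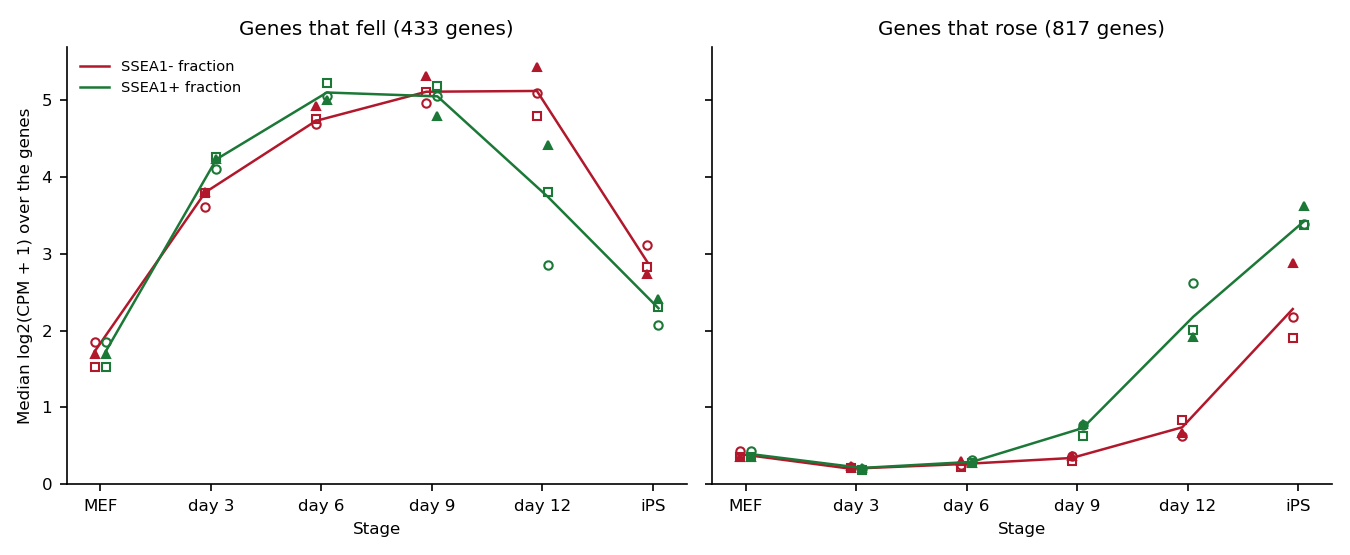
Median log2(CPM + 1) over the 433 genes that fell and the 817 genes that rose between d12 SSEA1- and iPS SSEA1- cells, by stage, in SSEA1- (red) and SSEA1+ (green) cells. Lines join the medians of group means, and circles, squares and triangles are replicates 1, 2 and 3; the same MEF libraries start both lines. The genes that fell had a median of 1.73 in MEFs, 5.12 in d12 SSEA1- cells and 2.89 in iPS SSEA1- cells.

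Tac2, which encodes the precursor of the neuropeptide neurokinin B, had 0.515, 0.322 and 0.372 CPM in iPS SSEA1- replicates 1, 2 and 3, against 21.4, 38.5 and 119.7 CPM in d12 SSEA1- replicates 1, 2 and 3 (log2 fold change -7.17 ± 1.14, adjusted p = 0.00028). It was near 0 in every iPS library and uneven over the d12 libraries. Tmprss5, a transmembrane serine protease, had 0.858, 0.589 and 0.931 CPM in iPS SSEA1- cells, against 85.5, 56.8 and 150.1 CPM in d12 SSEA1- cells (log2 fold change -6.91 ± 0.81, adjusted p = 1.2e-05). Alox15, a lipoxygenase that oxidises arachidonic and linoleic acid, had 0.515, 0.643 and 0.261 CPM in iPS SSEA1- cells, against 53.2, 36.9 and 55.5 CPM in d12 SSEA1- cells (log2 fold change -6.69 ± 0.94, adjusted p = 0.0001). The MEF means of Tac2, Tmprss5 and Alox15 were 0.0194 ± 0.034, 0.128 ± 0.065 and 0.101 ± 0.094 CPM (SD, n = 3). Ehf, an ETS-family transcription factor of epithelial cells, had 1.75, 4.23 and 1.15 CPM in iPS SSEA1- cells, against 94.1, 68 and 100.1 CPM in d12 SSEA1- cells (log2 fold change -5.23 ± 0.59, adjusted p = 8.9e-06). Avil, which encodes the actin-binding protein advillin, had 3.4, 2.41 and 1.79 CPM in iPS SSEA1- cells, against 87.6, 70.4 and 97.7 CPM in d12 SSEA1- cells (log2 fold change -5.07 ± 0.55, adjusted p = 8.7e-06). Crym, a thyroid hormone-binding crystallin, had 4.73, 2.52 and 2.05 CPM in iPS SSEA1- cells, against 89.8, 122 and 146 CPM in d12 SSEA1- cells (log2 fold change -5.25 ± 0.78, adjusted p = 0.00016). These 3 genes were low in every iPS library and high, within a narrow range, in every d12 library.

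The other 6 of the 12 were Nxpe2, Slc12a3 (the thiazide-sensitive sodium chloride transporter), Acsbg1 (an acyl-CoA synthetase), Sptssb (a small subunit of serine palmitoyltransferase), Clec3b (tetranectin) and Unc5d (a netrin receptor). Their log2 fold changes ran from -6.55 for Nxpe2 to -4.96 for Unc5d. The highest iPS SSEA1- value among these 6 genes was 4.23 CPM, for Acsbg1 in replicate 2, and the lowest d12 SSEA1- value was 6.29 CPM, for Unc5d in replicate 2.

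Among the reprogramming factor genes 1 of 4 fell. Myc, which encodes a transcription factor of growth and metabolism, had 22.9, 27.1 and 60.2 CPM in iPS SSEA1- replicates 1, 2 and 3, against 202, 246 and 458 CPM in d12 SSEA1- replicates 1, 2 and 3 (log2 fold change -3.04 ± 0.42, adjusted p = 8.6e-05). The 2 groups did not overlap, and the iPS level lay under the 97.7 ± 9.2 CPM (SD, n = 3) of MEFs. The call held without any 1 of the 6 libraries. Pou5f1, whose product Oct4 is the central factor of pluripotency, had 7.07, 21.9 and 253 CPM in iPS SSEA1- cells, against 69.7, 49.6 and 75.7 CPM in d12 SSEA1- cells (log2 fold change 0.53 ± 0.65, adjusted p = 0.69). Its iPS libraries fell on both sides of the d12 libraries: replicates 1 and 2 below all 3, and replicate 3 above all 3. Without iPS replicate 3 it was called lower (log2 fold change -2.21, adjusted p = 0.004). Klf4, a zinc finger factor, had 73.1, 72 and 243 CPM in iPS SSEA1- cells, against 148, 127 and 228 CPM in d12 SSEA1- cells (log2 fold change -0.37 ± 0.36, adjusted p = 0.59), and was called lower without iPS replicate 3 as well (log2 fold change -1.27, adjusted p = 0.017). Sox2, the HMG-box partner of Oct4, had 62.4, 41.4 and 263 CPM in iPS SSEA1- cells, against 16.8, 26.7 and 94.5 CPM in d12 SSEA1- cells (log2 fold change 1.41 ± 0.68, adjusted p = 0.21), with iPS replicates 1 and 2 inside the range of the d12 libraries and iPS replicate 3 above it. Reads counted at these genes do not tell a transgene from the endogenous gene.

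Of 18 tested surface markers 3 fell and 1 rose. Cd34, a sialomucin of blood stem and endothelial cells, had 61.4, 106 and 36.6 CPM in iPS SSEA1- cells, against 626, 488 and 530.3 CPM in d12 SSEA1- cells (log2 fold change -3.01 ± 0.55, adjusted p = 0.0012). Podxl, the related sialomucin podocalyxin, had 251, 250.3 and 58.8 CPM in iPS SSEA1- cells, against 864, 438 and 844 CPM in d12 SSEA1- cells (log2 fold change -1.94 ± 0.48, adjusted p = 0.012). Ly6a, which encodes the stem cell antigen Sca-1, had 109.5, 300.0 and 159 CPM in iPS SSEA1- cells, against 1001, 822 and 753 CPM in d12 SSEA1- cells (log2 fold change -2.18 ± 0.64, adjusted p = 0.034). In all 3 the groups were apart, and MEFs had 27.6 ± 22, 1.59 ± 1.1 and 17.4 ± 10 CPM (SD, n = 3). Podxl was not called without d12 SSEA1- replicate 1 or 3 (adjusted p = 0.054 and 0.056). Ly6a was not called without iPS SSEA1- replicate 1 or 3 or any 1 of the 3 d12 SSEA1- libraries (adjusted p = 0.058 to 0.12). The call of Cd34 held without any 1 of the 6 libraries. The marker that rose was Pecam1, an adhesion molecule of endothelial and pluripotent cells, with 4.87, 8.63 and 52.5 CPM in iPS SSEA1- cells, against 2.83, 2.97 and 1.65 CPM in d12 SSEA1- cells (log2 fold change 3.14 ± 0.61, adjusted p = 0.0019); it was not called without iPS replicate 3 (log2 fold change 1.38, adjusted p = 0.053).

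Further genes that fell came from several lists. Tek, the angiopoietin receptor of endothelial cells, had 13.4, 20 and 13.6 CPM in iPS SSEA1- cells, against 137, 109 and 115 CPM in d12 SSEA1- cells (log2 fold change -2.95 ± 0.40, adjusted p = 8.6e-05). Laptm5, which encodes a lysosomal membrane protein of blood cells, had 20.6, 67.3 and 68.4 CPM in iPS SSEA1- cells, against 515, 281 and 493 CPM in d12 SSEA1- cells (log2 fold change -3.04 ± 0.68, adjusted p = 0.0058). Unlike Lyz2, it was not high in replicate 2 of either group. Itgb4, the integrin chain of hemidesmosomes, had 178, 79.1 and 139.5 CPM in iPS SSEA1- cells, against 702, 321 and 716 CPM in d12 SSEA1- cells (log2 fold change -2.13 ± 0.47, adjusted p = 0.0053). Rec8, a meiotic cohesin subunit, had 19.5, 11.4 and 8.42 CPM in iPS SSEA1- cells, against 105, 62.4 and 86.4 CPM in d12 SSEA1- cells (log2 fold change -2.69 ± 0.61, adjusted p = 0.0063), and was the only one of 22 tested germline genes to fall. Golm1, which encodes a Golgi membrane protein, had 124, 105 and 91.8 CPM in iPS SSEA1- cells, against 259, 164 and 265 CPM in d12 SSEA1- cells (log2 fold change -1.10 ± 0.23, adjusted p = 0.0039). Etl4 had 105, 123 and 97.5 CPM in iPS SSEA1- cells, against 356, 257 and 266 CPM in d12 SSEA1- cells (log2 fold change -1.43 ± 0.20, adjusted p = 0.00011). Both were among the 8 genes of highest iPS mean out of the called genes with a range under 0.5 over the iPS libraries. Slc7a11, the cystine importer and an ATF4 target, had 29.1, 16.9 and 21.4 CPM in iPS SSEA1- cells, against 164, 71.5 and 142 CPM in d12 SSEA1- cells (log2 fold change -2.48 ± 0.45, adjusted p = 0.0011). Golm1 was not called without d12 SSEA1- replicate 3 (adjusted p = 0.034, with a change under 2-fold where p was under 0.05). The calls of Tek, Laptm5, Itgb4, Rec8, Etl4 and Slc7a11 held without any 1 of the 6 libraries.

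**Figure D2:**
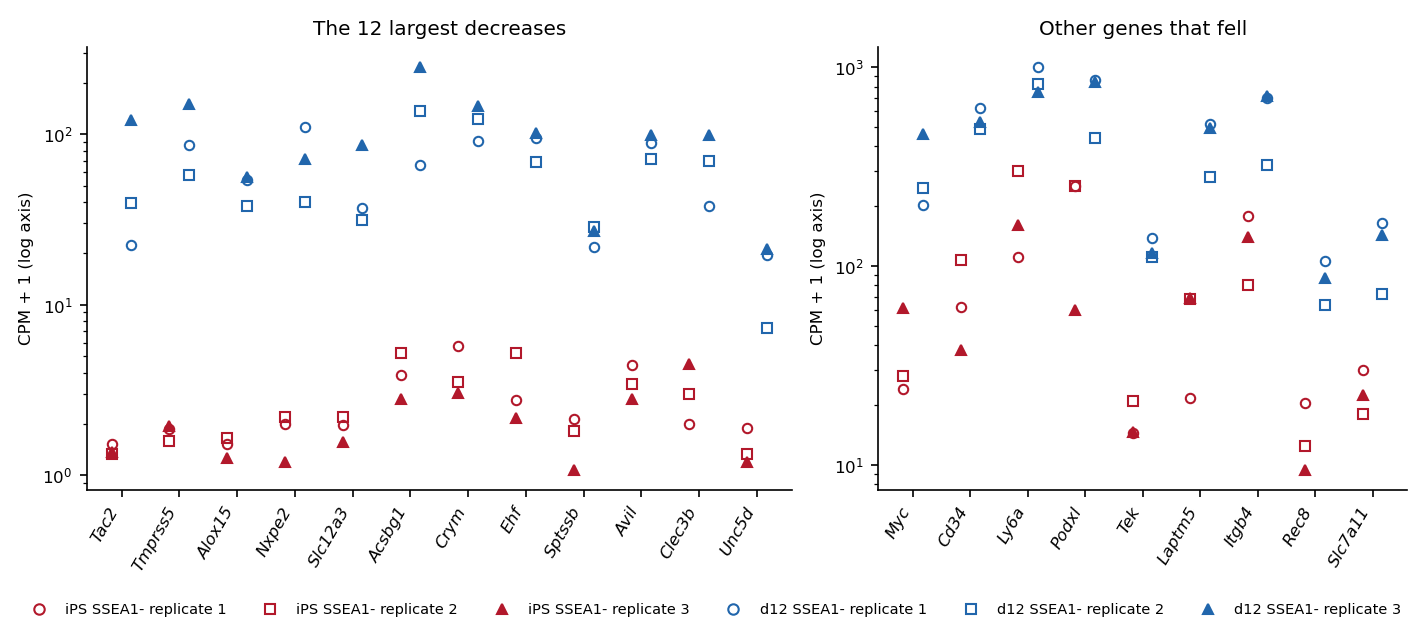
CPM + 1 (log axis) of the 12 largest decreases and of 9 other genes that fell, in each iPS SSEA1- library (red, left of each gene) and each d12 SSEA1- library (blue, right); circles, squares and filled triangles are replicates 1, 2 and 3. In every gene shown the 3 iPS SSEA1- values lie below the 3 d12 SSEA1- values, which the naming rule required of the 12 largest decreases.

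Some feedback genes of fibroblast growth factor (FGF) signalling fell and some FGF ligand genes rose. The FGF list had 22 tested members, of which 4 rose (Fgf10, Fgf15, Fgf17 and Fgfr4) and 3 fell (Fgf18, Spry4 and Dusp6), with a median log2 fold change of 0.38 (all tested genes 0.106). The list had 2 increases without d12 replicate 1, and 5 decreases with limma voom, without d12 replicate 2 and without replicate 2 of both groups. Spry4 and Dusp6 encode inhibitors that are induced by the pathway and act back on it. Spry4 had 59.4, 66.3 and 45.4 CPM in iPS SSEA1- cells, against 141, 116 and 178 CPM in d12 SSEA1- cells (log2 fold change -1.34 ± 0.23, adjusted p = 0.00062). Dusp6, a phosphatase of ERK, had 119, 145 and 53 CPM in iPS SSEA1- cells, against 201, 255 and 318 CPM in d12 SSEA1- cells (log2 fold change -1.29 ± 0.33, adjusted p = 0.014). Fgf18, a ligand, had 5.76, 9.43 and 5.25 CPM in iPS SSEA1- cells, against 15.9, 26 and 20.6 CPM in d12 SSEA1- cells (log2 fold change -1.61 ± 0.36, adjusted p = 0.0062). Spred2, another inhibitor, had 58.1, 63.2 and 63.5 CPM in iPS SSEA1- cells, against 100.2, 88 and 106 CPM in d12 SSEA1- cells, less than a 2-fold change (log2 fold change -0.67 ± 0.14, adjusted p = 0.0031). In the opposite direction, the ligand gene Fgf15 had 10.8, 5.47 and 6.59 CPM in iPS SSEA1- cells, against 0.161, 0.387 and 0.118 CPM in d12 SSEA1- cells (log2 fold change 5.06 ± 0.75, adjusted p = 0.00026), and Fgf17 had 1.41, 0.482 and 7 CPM in iPS SSEA1- cells, against 0.161, 0.194 and 0.0786 CPM in d12 SSEA1- cells (log2 fold change 4.30 ± 0.90, adjusted p = 0.0038). Dusp6 was not called without iPS SSEA1- replicate 3 or d12 SSEA1- replicate 3 (adjusted p = 0.052 and 0.083). The calls of Spry4, Fgf18, Fgf15 and Fgf17 held without any 1 of the 6 libraries. The d12 values of Fgf15 and Fgf17 rest on few reads, so the sizes of their fold changes are uncertain.

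Genes of the naive pluripotent state rose, but the increase lay in 1 library. Naive pluripotency is the state of the preimplantation epiblast and of mouse embryonic stem cells. Of the 15 tested members of that list 9 rose and 0 fell, the median log2 fold change was 2.50, and all 15 were highest in iPS replicate 3. The mean log2(CPM + 1) of the list was 3.20, 4.07 and 6.74 in the iPS SSEA1- libraries and 2.65, 4.08 and 3.29 in the d12 SSEA1- libraries. Nanog, given above, was called (log2 fold change 2.79 ± 0.78, adjusted p = 0.025), and so were Esrrb, an orphan nuclear receptor, with 10.3, 28.5 and 279 CPM in iPS SSEA1- cells, against 8.92, 31 and 15.5 CPM in d12 SSEA1- cells (log2 fold change 2.52 ± 0.73, adjusted p = 0.029), and Dppa5a, an RNA-binding protein gene, with 40.3, 112 and 779 CPM in iPS SSEA1- cells, against 6.38, 68 and 16.9 CPM in d12 SSEA1- cells (log2 fold change 3.35 ± 0.83, adjusted p = 0.012). Zfp42, which encodes the zinc finger protein Rex1, had 6.42, 20.9 and 154 CPM in iPS SSEA1- cells, against 1.84, 17 and 3.34 CPM in d12 SSEA1- cells (log2 fold change 3.03 ± 0.79, adjusted p = 0.018). Tbx3, a T-box factor, had 8.99, 19.3 and 121 CPM in iPS SSEA1- cells, against 5.93, 14.8 and 5.54 CPM in d12 SSEA1- cells (log2 fold change 2.50 ± 0.56, adjusted p = 0.0063). In these 5 genes iPS replicate 1 lay within the range of the d12 libraries, and iPS replicate 2 lay within it or less than 2-fold above it. Of the 9 calls, 9, 9 and 0 held without iPS SSEA1- replicate 1, 2 and 3, and 2, 8 and 0 without d12 SSEA1- replicate 1, 2 and 3. With replicate numbers as a block, Esrrb was not called (log2 fold change 2.26, adjusted p = 0.052). Limma voom with sample quality weights called 0 of the 15 members higher and 1 lower.

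Late pluripotency genes, which are switched on towards the end of reprogramming, rose in part, and most were highest in 1 library. Of 16 tested members 8 rose and 0 fell (median log2 fold change 2.45), and 14 were highest in iPS replicate 3. Of these calls, 7, 7 and 3 were called again without iPS SSEA1- replicate 1, 2 and 3, and 4, 5 and 2 without d12 SSEA1- replicate 1, 2 and 3. Without iPS replicate 3 the list had 3 increases and 2 decreases, and with limma voom 3 and 1. Sall4, a zinc finger factor, had 25.7, 50.2 and 115 CPM in iPS SSEA1- cells, against 11.9, 14.8 and 8.25 CPM in d12 SSEA1- cells (log2 fold change 2.45 ± 0.54, adjusted p = 0.0055). Lin28a, an RNA-binding protein that blocks let-7 processing, had 80.1, 118 and 85.2 CPM in iPS SSEA1- cells, against 32.5, 14.6 and 4.36 CPM in d12 SSEA1- cells (log2 fold change 2.46 ± 0.69, adjusted p = 0.025). For these genes every iPS library exceeded every d12 library. Dnmt3l, the cofactor of the de novo DNA methyltransferases, had 1.54, 11.2 and 130.1 CPM in iPS SSEA1- cells, against 0.225, 6.29 and 1.93 CPM in d12 SSEA1- cells (log2 fold change 4.08 ± 1.01, adjusted p = 0.012). Lefty2, an inhibitor and target of Nodal, had 4.01, 35.3 and 229.5 CPM in iPS SSEA1- cells, against 5.25, 7.84 and 2.67 CPM in d12 SSEA1- cells (log2 fold change 4.09 ± 0.84, adjusted p = 0.0033). Utf1, a chromatin factor of pluripotent cells, had 1.54, 3.59 and 104 CPM in iPS SSEA1- cells, against 1.58, 6.19 and 7.39 CPM in d12 SSEA1- cells (log2 fold change 2.85 ± 0.90, adjusted p = 0.047), and was not called with replicate numbers as a block (log2 fold change 2.28, adjusted p = 0.09). The last 3 genes were high in replicate 3 above all. Lin28a was not called without iPS SSEA1- replicate 2 or d12 SSEA1- replicate 2 or 3 (adjusted p = 0.062 to 0.13). Dnmt3l was not called without iPS SSEA1- replicate 3 or d12 SSEA1- replicate 1 or 3 (adjusted p = 0.062 to 0.43). Lefty2 was not called without iPS SSEA1- replicate 3 (adjusted p = 0.08). Utf1 was not called without iPS SSEA1- replicate 3 or any 1 of the 3 d12 SSEA1- libraries (adjusted p = 0.097 to 0.33). The call of Sall4 held without any 1 of the 6 libraries. L1td1, an RNA-binding protein of pluripotent cells, ran the other way with 10.4, 36.2 and 232 CPM in iPS SSEA1- cells, against 281, 273 and 293 CPM in d12 SSEA1- cells (log2 fold change -1.60 ± 0.57, adjusted p = 0.075), and was called lower without iPS replicate 3 (log2 fold change -3.64, adjusted p = 3e-05) and with the block (log2 fold change -1.83, adjusted p = 0.03).

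The increase of Otx2 was spread over all 3 iPS libraries. It encodes a homeobox factor that marks the passage of the epiblast from the naive to the primed state, in which cells become ready to differentiate. It had 39.2, 64.5 and 75.9 CPM in iPS SSEA1- replicates 1, 2 and 3, against 11.3, 5.9 and 1.49 CPM in d12 SSEA1- replicates 1, 2 and 3 (log2 fold change 3.26 ± 0.53, adjusted p = 0.00035), and the call held without any 1 of the 6 libraries. Of 14 tested primed epiblast and streak genes 5 rose (Otx2, Wnt3, Sp5, Sox3 and Zic2) and 0 fell. All 3 iPS libraries lay above all 3 d12 libraries in 8 of them, and in 12.5% of all tested genes. The median log2 fold change was 2.43, and 4, 7 and 3 members were highest in iPS replicates 1, 2 and 3. In d12 SSEA1- replicates 1, 2 and 3 the mean log2(CPM + 1) of this list was only 2.03, 1.46 and 0.86. A decrease was hardly open to members near 0 at day 12, which could pass the filter only through other groups. The 0 decreases are therefore not a result about the list, and the size of its median is uncertain. Of the increases, 2, 4 and 5 were called again without iPS SSEA1- replicate 1, 2 and 3, and 2, 2 and 1 without d12 SSEA1- replicate 1, 2 and 3. Zic2, a zinc finger factor, had 17.5, 13.9 and 17.9 CPM in iPS SSEA1- cells, against 4.51, 8.48 and 5.15 CPM in d12 SSEA1- cells (log2 fold change 1.44 ± 0.36, adjusted p = 0.013). Sox3, a neural and epiblast factor of the SOXB1 class, had 6.69, 1.23 and 1.08 CPM in iPS SSEA1- cells, against 0.322, 0.0968 and 0.157 CPM in d12 SSEA1- cells (log2 fold change 3.93 ± 1.12, adjusted p = 0.04). Dnmt3b, the de novo DNA methyltransferase of the epiblast, had 25.8, 69.5 and 53.2 CPM in iPS SSEA1- cells, against 23.3, 20.5 and 15.2 CPM in d12 SSEA1- cells (log2 fold change 1.33 ± 0.43, adjusted p = 0.054), and was called with the block (log2 fold change 1.35, adjusted p = 0.043). Cer1, a secreted antagonist of Nodal and BMP, was among the 8 genes of widest range over the iPS libraries, with 6.72, 61.7 and 0.186 CPM in iPS SSEA1- cells, against 18.9, 6.35 and 0.786 CPM in d12 SSEA1- cells (log2 fold change 1.39 ± 1.63, adjusted p = 0.68). Zic2 was not called without d12 SSEA1- replicate 1 or 3 (adjusted p = 0.079 and 0.081). Sox3 was not called without iPS SSEA1- replicate 1 or any 1 of the 3 d12 SSEA1- libraries (adjusted p = 0.087 to 0.18), and its d12 values rest on few reads.

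**Figure D3:**
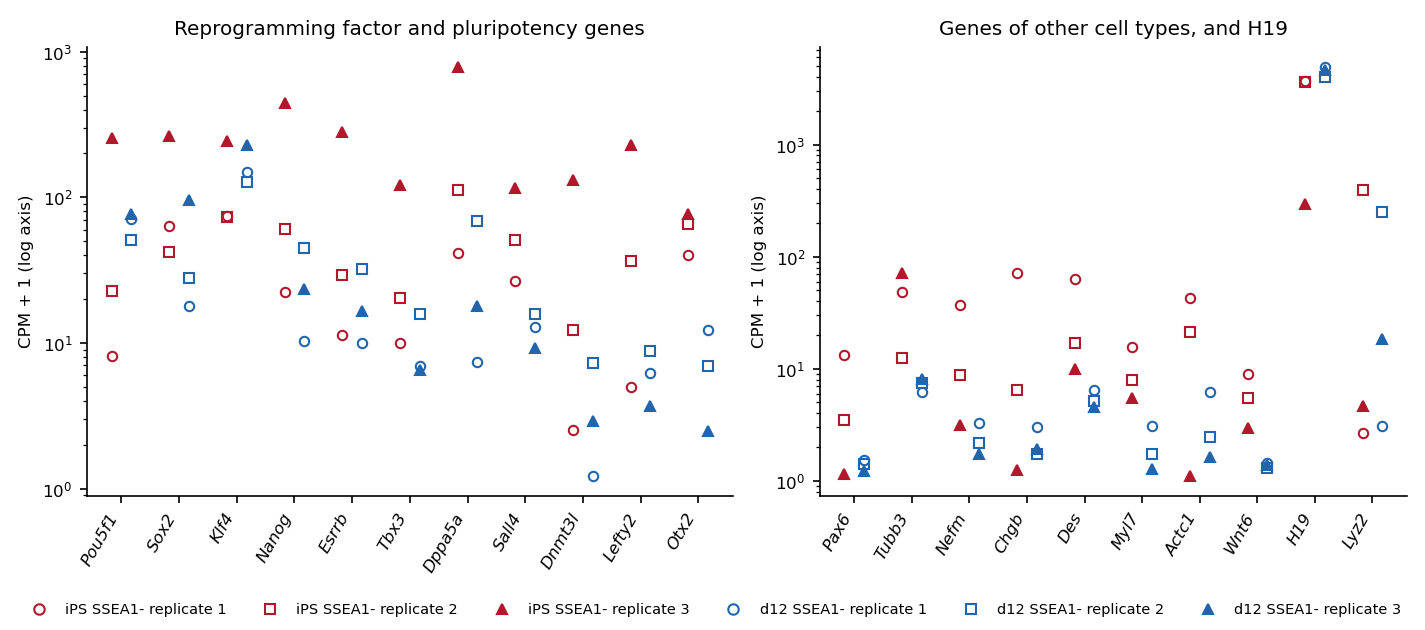
CPM + 1 (log axis) of reprogramming factor and pluripotency genes and of genes of other cell types in each iPS SSEA1- library (red, left of each gene) and each d12 SSEA1- library (blue, right); circles, squares and filled triangles are replicates 1, 2 and 3. The filled red triangle of Nanog stands at 441 CPM and the other red symbols at 21.4 and 59.5 CPM, whereas Otx2 is higher in all 3 iPS SSEA1- libraries.

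Genes of the germline had more calls than any other of the 45 lists. In mouse somatic cells many of them are kept silent by promoter DNA methylation and by repressor complexes that bind an E-box (CACGTG) near the start site, and pluripotent cells are known to express some of them at a low level. Of 22 tested members 16 rose and 1 fell. The mean log2(CPM + 1) of the list was only 0.91, 1.16 and 0.98 in d12 SSEA1- replicates 1, 2 and 3. Members near 0 at day 12 could pass the filter only through other groups, where they were higher. A decrease was hardly open to them, so the rank of this list among the 45 is not a result about its members. The median log2 fold change was 3.2, and 18 of the 22 were highest in iPS replicate 3. The promoters of 3 members named by the rule are shown for their E-boxes, 5′ to 3′ on the strand of the gene, from RefSeq (GRCm38.p6), with CACGTG in capitals:
Stag3, chr5:138280302-138280381, + strand: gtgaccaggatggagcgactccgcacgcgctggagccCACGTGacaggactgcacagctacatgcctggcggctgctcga
Hormad1, chr3:95559583-95559662, + strand: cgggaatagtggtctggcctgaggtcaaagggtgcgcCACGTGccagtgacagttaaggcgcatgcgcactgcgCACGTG
Taf7l, chrX:134476497-134476576, - strand: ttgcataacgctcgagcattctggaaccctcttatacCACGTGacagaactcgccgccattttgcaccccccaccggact
All 3 windows end before the annotated start site. Dazl, Tex19.1, Dmrt1 and Rec8, also named by the rule, had no E-box there or no RefSeq promoter. The motif, which reads the same on both strands, occurred in 300-base windows around the start site of 10 of the 20 tested germline genes with a RefSeq promoter, in 8 of the 15 that rose among these (53.3%), and in 11.1% of 12291 tested genes. A window of all 605 genes that rose and had a promoter held it in 11.9%. These matches are a description of the letters in the windows.

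The increases of the germline genes were uneven in some members and even in others. Stag3, a cohesin subunit of meiosis, had 20, 14.2 and 55.9 CPM in iPS SSEA1- cells, against 4.54, 9.06 and 5.58 CPM in d12 SSEA1- cells (log2 fold change 2.23 ± 0.57, adjusted p = 0.016). Hormad1, a protein of the meiotic chromosome axis, had 1.75, 5.25 and 15.3 CPM in iPS SSEA1- cells, against 0.0644, 1 and 0.471 CPM in d12 SSEA1- cells (log2 fold change 3.85 ± 0.76, adjusted p = 0.0028). Taf7l, a TFIID subunit of germ cells, had 1.24, 1.45 and 1.75 CPM in iPS SSEA1- cells, against 0.0322, 0.0968 and 0.0393 CPM in d12 SSEA1- cells (log2 fold change 4.57 ± 0.73, adjusted p = 0.00037), and was alike in the 3 iPS libraries. Its d12 values stand for 3 reads or fewer in each library, so the size of its fold change is uncertain. The first pair had their highest value in iPS replicate 3. Dazl, an RNA-binding protein of germ cells, had 3.77, 2.63 and 21 CPM in iPS SSEA1- cells, against 0.161, 1.58 and 0.236 CPM in d12 SSEA1- cells (log2 fold change 3.77 ± 0.83, adjusted p = 0.0053). Tex19.1, which acts in the silencing of retrotransposons, had 3.02, 3.32 and 44.5 CPM in iPS SSEA1- cells, against 0.515, 3.39 and 1.06 CPM in d12 SSEA1- cells (log2 fold change 3.35 ± 0.82, adjusted p = 0.011). Dmrt1, a testis factor, had 0.789, 0.643 and 4.65 CPM in iPS SSEA1- cells, against 0, 0.0323 and 0.0786 CPM in d12 SSEA1- cells, and its 3 d12 libraries held 3 reads in all. Its calls with single libraries left out are not reported here. Of the 16 calls, 16, 13 and 4 held without iPS SSEA1- replicate 1, 2 and 3, and 4, 12 and 5 without d12 SSEA1- replicate 1, 2 and 3. Stag3 was not called without iPS SSEA1- replicate 3 or d12 SSEA1- replicate 1 or 3 (adjusted p = 0.083 to 0.14). Dazl was not called without iPS SSEA1- replicate 3 (adjusted p = 0.063). Tex19.1 was not called without iPS SSEA1- replicate 3 or d12 SSEA1- replicate 1 or 3 (adjusted p = 0.068 to 0.43). The calls of Hormad1 and Taf7l held without any 1 of the 6 libraries. Limma voom with sample quality weights called 5 members higher. In iPS SSEA1+ cells Stag3 had 188, 199 and 151 CPM and Taf7l had 32.9, 9.64 and 10.2 CPM, all above the iPS SSEA1- values.

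The 12 largest increases by the naming rule belonged mainly to iPS replicate 3, which was the highest iPS library in 11 of them. None of the 12 was called in the fit of the 6 libraries alone, and 12 of the 12 decreases were. Usp26, an X-linked ubiquitin protease of the testis, had 2.3, 3.7 and 34.1 CPM in iPS SSEA1- cells, against 0.161, 0.387 and 0.196 CPM in d12 SSEA1- cells (log2 fold change 5.71 ± 0.81, adjusted p = 0.0001). Sohlh2, a basic helix-loop-helix factor of germ cells, had 1.89, 1.82 and 40.6 CPM in iPS SSEA1- cells, against 0.161, 0.387 and 0.354 CPM in d12 SSEA1- cells (log2 fold change 5.60 ± 0.87, adjusted p = 0.00025). Smc1b, the meiotic cohesin subunit, had 4.94, 5.25 and 35.7 CPM in iPS SSEA1- cells, against 0.644, 1.84 and 0.982 CPM in d12 SSEA1- cells (log2 fold change 3.72 ± 0.56, adjusted p = 0.0002). Lncenc1, a noncoding RNA of embryonic stem cells, had 7.24, 14 and 113 CPM in iPS SSEA1- cells, against 1.16, 4.84 and 2.28 CPM in d12 SSEA1- cells (log2 fold change 4.01 ± 0.73, adjusted p = 0.0012). In all 12 genes every iPS library exceeded every d12 library, because the naming rule required it. Tnfrsf19, a receptor of the tumour necrosis factor family, was highest in iPS replicate 1, with 36.7, 11 and 3.2 CPM in iPS SSEA1- cells, against 2.38, 0.484 and 0.629 CPM in d12 SSEA1- cells (log2 fold change 3.86 ± 1.02, adjusted p = 0.019). The other members were Tuba3a, Notum, A2m, Mcf2, Dnajc6, Fmr1nb and Dmtn, with log2 fold changes of 3.76 (Dmtn) to 4.55 (Tuba3a). Apart from Notum, given with the Wnt genes, their calls without iPS replicate 3 are not reported here. Reads of Tuba3a are uncertain, since a near-identical tubulin gene exists. Tnfrsf19 was not called without iPS SSEA1- replicate 1 or d12 SSEA1- replicate 2 or 3 (adjusted p = 0.078 to 0.12). The calls of Usp26, Sohlh2, Smc1b and Lncenc1 held without any 1 of the 6 libraries.

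Neural genes were mostly highest in iPS replicate 1. Of 19 tested neural genes 5 rose (Pax6, Tubb3, Elavl3, Olig2 and Nefm) and 0 fell, and 14 had their highest iPS value in replicate 1. The mean log2(CPM + 1) of the neural list was 3.95, 2.67 and 2.51 in the iPS SSEA1- libraries and 2.28, 2.43 and 2.28 in the d12 SSEA1- libraries. Pax6, a homeobox factor of the eye and forebrain, had 12.3, 2.52 and 0.149 CPM in iPS SSEA1- cells, against 0.547, 0.419 and 0.236 CPM in d12 SSEA1- cells (log2 fold change 3.61 ± 0.90, adjusted p = 0.012). Nefm, a neurofilament chain, had 36.4, 7.72 and 2.12 CPM in iPS SSEA1- cells, against 2.25, 1.19 and 0.746 CPM in d12 SSEA1- cells (log2 fold change 3.45 ± 0.97, adjusted p = 0.025). Tubb3, a tubulin of neurons, had 47.8, 11.5 and 70 CPM in iPS SSEA1- cells, against 5.15, 6.48 and 7.11 CPM in d12 SSEA1- cells (log2 fold change 2.79 ± 0.67, adjusted p = 0.01), and was high in replicates 1 and 3. Chgb, which encodes the secretory granule protein chromogranin B, was one of the 8 genes of widest iPS range, with 69.9, 5.47 and 0.261 CPM in iPS SSEA1- cells, against 2.03, 0.742 and 0.943 CPM in d12 SSEA1- cells (log2 fold change 4.34 ± 1.10, adjusted p = 0.014). Of the 5 calls of the list, 2, 5 and 4 held without iPS SSEA1- replicate 1, 2 and 3, and 1, 4 and 2 without d12 SSEA1- replicate 1, 2 and 3. Pax6 was not called without iPS SSEA1- replicate 1 or d12 SSEA1- replicate 3 (adjusted p = 0.081 and 0.21). Nefm was not called without iPS SSEA1- replicate 1 or any 1 of the 3 d12 SSEA1- libraries (adjusted p = 0.056 to 0.25). Tubb3 was not called without d12 SSEA1- replicate 1 (adjusted p = 0.056). Chgb was not called without iPS SSEA1- replicate 1 or d12 SSEA1- replicate 2 or 3 (adjusted p = 0.061 to 0.48).

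Muscle genes were also mostly highest in iPS replicate 1. Of 13 tested cardiac and skeletal muscle genes 6 rose and 0 fell, with a median log2 fold change of 2.68, and 9 were highest in iPS replicate 1. The mean log2(CPM + 1) of the list was only 1.74, 1.36 and 1.31 in d12 SSEA1- replicates 1, 2 and 3. Members near 0 at day 12 could pass the filter only through other groups, and a decrease was hardly open to them. The 0 decreases are therefore not a result about these genes, and the size of the median is uncertain. Des, the intermediate filament protein of muscle, had 61.9, 15.8 and 8.9 CPM in iPS SSEA1- cells, against 5.44, 4.13 and 3.58 CPM in d12 SSEA1- cells (log2 fold change 2.72 ± 0.69, adjusted p = 0.014). Myl7, the atrial myosin light chain, had 14.5, 6.86 and 4.43 CPM in iPS SSEA1- cells, against 2.06, 0.742 and 0.275 CPM in d12 SSEA1- cells (log2 fold change 3.05 ± 0.82, adjusted p = 0.022). Tnnt2, cardiac troponin T, had 8.85, 3.54 and 1.08 CPM in iPS SSEA1- cells, against 1.03, 0.548 and 1.02 CPM in d12 SSEA1- cells (log2 fold change 2.37 ± 0.65, adjusted p = 0.022). Myl4, another atrial light chain, had 9.26, 7.34 and 5.18 CPM in iPS SSEA1- cells, against 1.64, 1.87 and 1.61 CPM in d12 SSEA1- cells (log2 fold change 2.08 ± 0.43, adjusted p = 0.0034). Actc1, cardiac actin, ranged widely over the iPS libraries and was not called, with 42, 20.3 and 0.112 CPM in iPS SSEA1- cells, against 5.15, 1.45 and 0.629 CPM in d12 SSEA1- cells (log2 fold change 3.10 ± 1.29, adjusted p = 0.14). Of the 6 calls, 1, 6 and 6 held without iPS SSEA1- replicate 1, 2 and 3, and 5, 1 and 1 without d12 SSEA1- replicate 1, 2 and 3. Des was not called without iPS SSEA1- replicate 1 or d12 SSEA1- replicate 2 or 3 (adjusted p = 0.051 to 0.17). Myl7 was not called without iPS SSEA1- replicate 1 or d12 SSEA1- replicate 2 or 3 (adjusted p = 0.08 to 0.12). Tnnt2 was not called without iPS SSEA1- replicate 1 or any 1 of the 3 d12 SSEA1- libraries (adjusted p = 0.064 to 0.19). The call of Myl4 held without any 1 of the 6 libraries.

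Trophoblast genes had no leading library of that kind, and endoderm genes were most often highest in iPS replicate 2. Of 16 tested trophoblast genes 5 rose (Hand1, Esx1, Rhox6, Rhox9 and Wnt7b) and 0 fell, with 5, 6 and 5 members highest in iPS replicates 1, 2 and 3 and a median log2 fold change of 1.8. Their mean log2(CPM + 1) was only 1.83, 1.88 and 1.7 in d12 SSEA1- replicates 1, 2 and 3. For members near 0 at day 12, which could pass the filter only through other groups, a decrease was hardly open. The 0 decreases are therefore not a result about these genes, and the size of the median is uncertain. Among those 5 calls, 3, 3 and 5 were called again without iPS SSEA1- replicate 1, 2 and 3, and 1, 3 and 0 without d12 SSEA1- replicate 1, 2 and 3. Rhox9, an X-linked homeobox gene of the placenta and germ line, had 5.28, 14.4 and 9.38 CPM in iPS SSEA1- cells, against 0.837, 1.74 and 0.904 CPM in d12 SSEA1- cells (log2 fold change 3.05 ± 0.68, adjusted p = 0.0073); its reads are uncertain because Rhox6 is a near-identical neighbour. Hand1, a basic helix-loop-helix factor of trophoblast and heart, had 2.85, 2.09 and 0.596 CPM in iPS SSEA1- cells, against 0.258, 0.226 and 0.236 CPM in d12 SSEA1- cells (log2 fold change 2.91 ± 0.81, adjusted p = 0.026). In both genes every iPS library exceeded every d12 library. Of 20 tested endoderm genes 1 rose, namely Hnf4a, a nuclear receptor of visceral endoderm and liver, with 4.6, 3.48 and 2.57 CPM in iPS SSEA1- cells, against 0.934, 0.419 and 0.157 CPM in d12 SSEA1- cells (log2 fold change 2.79 ± 0.64, adjusted p = 0.0076). The endoderm list had 3 increases with DESeq2, 6 with limma voom, 4 with the block and 3 without iPS replicate 3, and 6, 10 and 4 members were highest in iPS replicates 1, 2 and 3. Gata4, a zinc finger factor of endoderm and heart, had 23.4, 36.4 and 11.1 CPM in iPS SSEA1- cells, against 7.37, 4.74 and 3.26 CPM in d12 SSEA1- cells (log2 fold change 2.20 ± 0.72, adjusted p = 0.055), with all 3 iPS libraries above the d12 libraries, and was called with the block (log2 fold change 2.14, adjusted p = 0.039). Rhox9 was not called without d12 SSEA1- replicate 3 (adjusted p = 0.052). Hand1 was not called without iPS SSEA1- replicate 1 or any 1 of the 3 d12 SSEA1- libraries (adjusted p = 0.081 to 0.11). Hnf4a was not called without d12 SSEA1- replicate 3 (adjusted p = 0.058).

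Some Wnt ligand and target genes rose. Of 24 tested members of the Wnt list 8 rose and 0 fell, and the median log2 fold change was 1.72. All 3 iPS libraries lay above all 3 d12 libraries in 13 members, and in 12.5% of all tested genes. Members were highest in iPS replicates 1, 2 and 3 in 11, 9 and 4 cases. Of the Wnt calls, 3, 6 and 7 were called again without iPS SSEA1- replicate 1, 2 and 3, and 3, 2 and 2 without d12 SSEA1- replicate 1, 2 and 3. Among the ligands, Wnt6 had 7.89, 4.45 and 1.97 CPM in iPS SSEA1- cells, against 0.451, 0.29 and 0.393 CPM in d12 SSEA1- cells (log2 fold change 3.64 ± 0.71, adjusted p = 0.0023), Wnt3 had 4.22, 3.21 and 0.745 CPM in iPS SSEA1- cells, against 0.258, 0.0968 and 0.0393 CPM in d12 SSEA1- cells (log2 fold change 4.29 ± 1.15, adjusted p = 0.021) and Wnt7b had 15.6, 13.6 and 4.13 CPM in iPS SSEA1- cells, against 0.966, 1.42 and 1.3 CPM in d12 SSEA1- cells (log2 fold change 3.17 ± 0.90, adjusted p = 0.027). All 3 were highest in iPS replicate 1, and every iPS library exceeded every d12 library. Tcf7, which encodes a transcription factor that carries the Wnt signal in the nucleus, had 22.5, 18.5 and 50.6 CPM in iPS SSEA1- cells, against 6.25, 7.26 and 4.24 CPM in d12 SSEA1- cells (log2 fold change 2.37 ± 0.33, adjusted p = 0.0001). Notum, a secreted enzyme that inactivates Wnt proteins and is itself a Wnt target, had 2.02, 2.2 and 30.8 CPM in iPS SSEA1- cells, against 0.676, 0.419 and 0.589 CPM in d12 SSEA1- cells (log2 fold change 4.37 ± 1.11, adjusted p = 0.014). Wnt3 was not called without iPS SSEA1- replicate 1 or d12 SSEA1- replicate 2 or 3 (adjusted p = 0.0502 to 0.11), and its d12 values rest on few reads. Wnt7b was not called without iPS SSEA1- replicate 1 or 2 or any 1 of the 3 d12 SSEA1- libraries (adjusted p = 0.054 to 0.11). Notum was not called without iPS SSEA1- replicate 3 or any 1 of the 3 d12 SSEA1- libraries (adjusted p = 0.057 to 0.24). The calls of Wnt6 and Tcf7 held without any 1 of the 6 libraries.

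**Figure D4:**
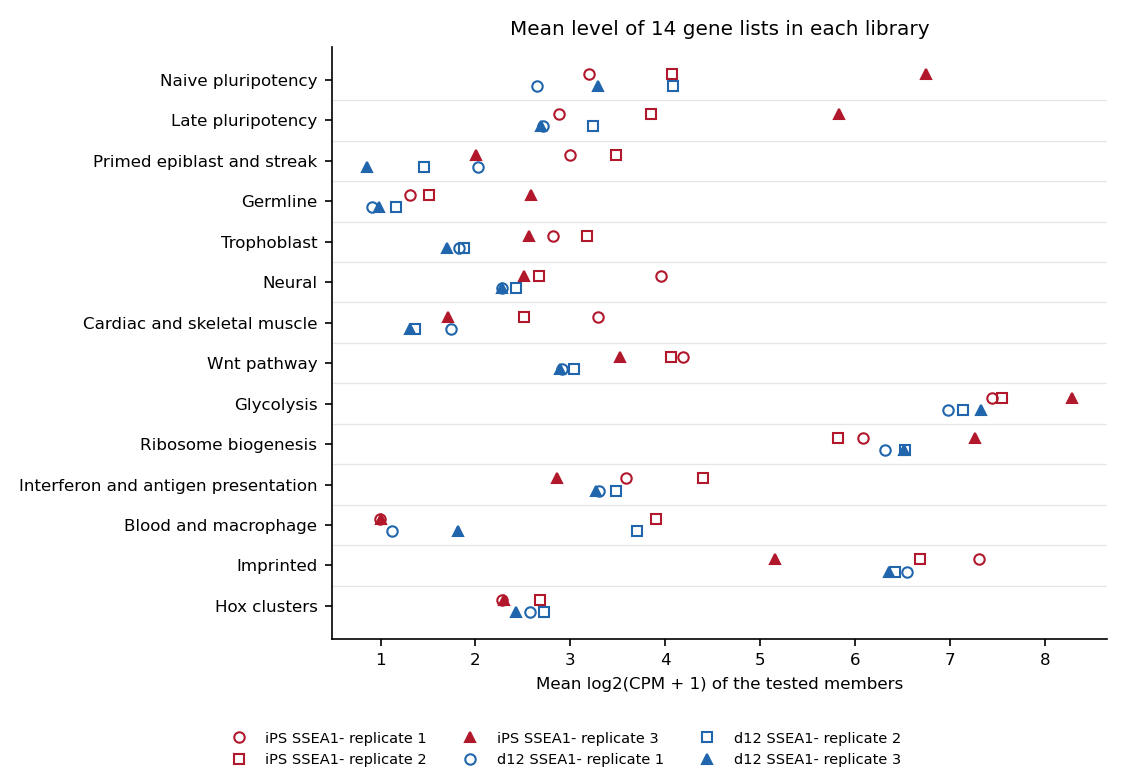
Mean log2(CPM + 1) of the tested members of 14 gene lists in each iPS SSEA1- library (red, upper symbols of a row) and each d12 SSEA1- library (blue, lower symbols); circles, squares and filled triangles are replicates 1, 2 and 3. The filled red triangle leads in both pluripotency lists, the germline list and ribosome biogenesis, the red circle in the neural and muscle lists, and the squares of both groups in the blood and macrophage list.

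Genes of TGF-beta signalling and a few genes of the matrix rose. Of 20 tested TGF-beta pathway genes 6 rose and 0 fell (median log2 fold change 0.46). In 11 the highest iPS library was replicate 3, as it was in 42.2% of all tested genes. Pmepa1, a target of the pathway that limits the signal, had 152, 186 and 362 CPM in iPS SSEA1- cells, against 86.7, 107 and 92.1 CPM in d12 SSEA1- cells (log2 fold change 1.29 ± 0.33, adjusted p = 0.016). Inhba, the activin A chain, had 22.9, 20 and 61.7 CPM in iPS SSEA1- cells, against 9.31, 5.64 and 6.6 CPM in d12 SSEA1- cells (log2 fold change 2.28 ± 0.62, adjusted p = 0.022). Ltbp1, a matrix protein that binds latent TGF-beta, had 216, 379 and 471 CPM in iPS SSEA1- cells, against 152, 214 and 129 CPM in d12 SSEA1- cells (log2 fold change 1.10 ± 0.33, adjusted p = 0.037). Of the 6 calls, 5, 4 and 0 held without iPS SSEA1- replicate 1, 2 and 3, and 1, 4 and 0 without d12 SSEA1- replicate 1, 2 and 3. Fn1, fibronectin, had 10271, 14411 and 17843 CPM in iPS SSEA1- cells, against 6487, 6733 and 4856 CPM in d12 SSEA1- cells (log2 fold change 1.23 ± 0.35, adjusted p = 0.027). The fibrillar collagen gene Col1a1 had 2112, 2571 and 6349 CPM in iPS SSEA1- cells, against 549, 1943 and 2439.5 CPM in d12 SSEA1- cells (log2 fold change 1.16 ± 0.81, adjusted p = 0.42), with groups that overlapped. Pmepa1 was not called without iPS SSEA1- replicate 3 or d12 SSEA1- replicate 1 or 3 (adjusted p = 0.066 to 0.15). Inhba was not called without iPS SSEA1- replicate 3 or any 1 of the 3 d12 SSEA1- libraries (adjusted p = 0.058 to 0.14). Ltbp1 was not called without iPS SSEA1- replicate 2 or 3 or d12 SSEA1- replicate 1 or 3 (adjusted p = 0.1 to 0.19). Fn1 was not called without iPS SSEA1- replicate 2 or 3 or any 1 of the 3 d12 SSEA1- libraries (adjusted p = 0.054 to 0.14).

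Of 24 tested fibroblast and mesenchymal markers 1 rose and 0 fell, with a median log2 fold change of 0.95, against 0.106 for all tested genes. The gene was Col5a1, with 577, 766 and 2447 CPM in iPS SSEA1- cells, against 206, 424 and 602 CPM in d12 SSEA1- cells (log2 fold change 1.62 ± 0.49, adjusted p = 0.039). The summed level of the 24 markers was 12450.0, 22968 and 25328 CPM in the iPS SSEA1- libraries and 8241, 16578 and 13871 CPM in the d12 SSEA1- libraries. The sums of iPS replicates 2 and 3 thus exceeded those of all d12 libraries, and that of iPS replicate 1 lay within their range. Col5a1 was not called without iPS SSEA1- replicate 3 or any 1 of the 3 d12 SSEA1- libraries (adjusted p = 0.053 to 0.4). Of the 33 tested collagen chains 4 rose (Col5a1, Col7a1, Col9a2 and Col13a1) and 0 fell, and of 29 tested matrix glycoproteins 3 rose (Fn1, Fbln2 and Ltbp1) and 0 fell. Of the collagen calls, 3, 3 and 2 were called again without iPS SSEA1- replicate 1, 2 and 3, and 0, 0 and 1 without d12 SSEA1- replicate 1, 2 and 3. Of the glycoprotein calls, 3, 1 and 0 were called again without iPS SSEA1- replicate 1, 2 and 3, and 0, 1 and 0 without d12 SSEA1- replicate 1, 2 and 3, and limma voom called 0. Of 22 tested simple epithelial markers 1 rose (Elf3), and of 19 tested stratified epithelial markers 2 rose (Krt15 and Ivl) and 1 fell (Itgb4). Over all tested genes 4.72% rose and 2.5% fell, so these small counts do not set epithelial genes apart. Elf3 was not called without iPS SSEA1- replicate 3 or any 1 of the 3 d12 SSEA1- libraries. Of Krt15 and Ivl, 2, 1 and 1 were called again without iPS SSEA1- replicate 1, 2 and 3, and 1, 2 and 0 without d12 SSEA1- replicate 1, 2 and 3. Cdh1, which encodes E-cadherin, had 162, 221 and 150.5 CPM in iPS SSEA1- cells, against 170.1, 107 and 87 CPM in d12 SSEA1- cells (log2 fold change 0.55 ± 0.67, adjusted p = 0.69). Epcam had 77.9, 94.7 and 56.5 CPM in iPS SSEA1- cells, against 45.9, 65.8 and 79.7 CPM in d12 SSEA1- cells (log2 fold change 0.26 ± 0.45, adjusted p = 0.8). Krt8 and Krt18, the keratins of simple epithelia, were above all d12 libraries in iPS replicates 1 and 2 and below them in iPS replicate 3, with 184, 267 and 15.5 CPM in iPS SSEA1- cells, against 62.5, 57.9 and 71.1 CPM in d12 SSEA1- cells for Krt8 (log2 fold change 1.29 ± 0.78, adjusted p = 0.34) and 247, 342 and 14.3 CPM in iPS SSEA1- cells, against 74.1, 48.3 and 36.1 CPM in d12 SSEA1- cells for Krt18 (log2 fold change 1.93 ± 0.85, adjusted p = 0.16).

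Some genes of glycolysis and of one-carbon metabolism rose. Of 20 tested glycolysis genes 7 rose and 0 fell, with a median log2 fold change of 0.85. In 16 of the 20, and in 12 of 13 tested threonine, serine and one-carbon genes, the highest iPS value was that of replicate 3. The glycolysis genes summed to 5710.1, 6592 and 13513 CPM in iPS SSEA1- cells and 4508, 4746 and 5533 CPM in d12 SSEA1- cells. Slc2a3, a glucose transporter, had 456, 744 and 755 CPM in iPS SSEA1- cells, against 283, 184 and 173 CPM in d12 SSEA1- cells (log2 fold change 1.61 ± 0.35, adjusted p = 0.0047). Slc2a1, the other main transporter, had 230.0, 281 and 502 CPM in iPS SSEA1- cells, against 118, 127 and 136 CPM in d12 SSEA1- cells (log2 fold change 1.41 ± 0.37, adjusted p = 0.016). Pfkp, a phosphofructokinase, had 104, 114 and 356 CPM in iPS SSEA1- cells, against 53.6, 78 and 56.8 CPM in d12 SSEA1- cells (log2 fold change 1.61 ± 0.38, adjusted p = 0.0095). Of the 7 calls, 6, 6 and 2 held without iPS SSEA1- replicate 1, 2 and 3, and 1, 5 and 3 without d12 SSEA1- replicate 1, 2 and 3. Mthfd2, a mitochondrial folate enzyme and ATF4 target, had 36.7, 48.2 and 94.6 CPM in iPS SSEA1- cells, against 11.7, 17.4 and 10.1 CPM in d12 SSEA1- cells (log2 fold change 2.20 ± 0.37, adjusted p = 0.00045). Gldc, glycine decarboxylase, had 29.6, 31.7 and 95 CPM in iPS SSEA1- cells, against 13.2, 18.8 and 11.9 CPM in d12 SSEA1- cells (log2 fold change 1.83 ± 0.52, adjusted p = 0.028). Among the 8 genes of highest iPS mean out of the called genes with an iPS range under 0.5 were Vegfa and P4ha2. Vegfa, a growth factor induced by low oxygen, had 188, 140.5 and 164 CPM in iPS SSEA1- cells, against 32, 45.8 and 46.4 CPM in d12 SSEA1- cells (log2 fold change 1.99 ± 0.48, adjusted p = 0.011). P4ha2, a collagen prolyl hydroxylase, had 108, 149 and 145 CPM in iPS SSEA1- cells, against 34.6, 57.2 and 40.8 CPM in d12 SSEA1- cells (log2 fold change 1.60 ± 0.29, adjusted p = 0.0011). Slc2a1 was not called without iPS SSEA1- replicate 3 or any 1 of the 3 d12 SSEA1- libraries (adjusted p = 0.0503 to 0.12). Pfkp was not called without iPS SSEA1- replicate 3 or d12 SSEA1- replicate 1 or 3 (adjusted p = 0.055 to 0.19). Gldc was not called without iPS SSEA1- replicate 3 or d12 SSEA1- replicate 1 or 3 (adjusted p = 0.098 to 0.23). Vegfa was not called without d12 SSEA1- replicate 1 (adjusted p = 0.064). The calls of Slc2a3, Mthfd2 and P4ha2 held without any 1 of the 6 libraries. The respiratory chain, ribosome biogenesis, cholesterol synthesis and p53 lists gave 0 calls among 24, 19, 17 and 17 tested members, with median log2 fold changes of -0.06, 0.04, 0.38 and -0.26. At an unadjusted p under 0.05, 0, 0, 3 and 1 members of these lists were higher and 0, 0, 0 and 1 lower, and DESeq2 and limma voom called none. The p53 list had 2 decreases without iPS replicate 3 and 1 without replicate 2 of both groups, and 0 without any other of the 6 libraries. All 19 ribosome biogenesis genes and all 20 tested DNA replication genes were highest in iPS replicate 3.

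Hox and imprinted genes gave few or no calls. None of 37 tested Hox genes was called by edgeR (median log2 fold change -0.22). At an unadjusted p under 0.05, 3 were higher and 4 lower; DESeq2 and the fit with the block called 1 lower, Hoxc9, and limma voom called 0. Of 18 tested imprinted genes none was called by edgeR, DESeq2 or limma voom, with 3 higher and 1 lower at an unadjusted p under 0.05 and 1 higher, Peg10, in the fit with the block. The imprinted list had 1 decrease without iPS replicate 1 and 1 increase without iPS replicate 3. A pair of them was low in 1 library. H19, a noncoding RNA of the H19-Igf2 domain, had 3710.3, 3612 and 295 CPM in iPS SSEA1- cells, against 4876, 3973 and 4617 CPM in d12 SSEA1- cells (log2 fold change -0.82 ± 0.72, adjusted p = 0.55), and Igf2, the growth factor gene beside it, had 2551, 1912 and 191 CPM in iPS SSEA1- cells, against 2387, 2103 and 2699 CPM in d12 SSEA1- cells (log2 fold change -0.63 ± 0.84, adjusted p = 0.72). In iPS SSEA1+ cells the means were 278 ± 210.0 CPM for H19 and 109 ± 120.0 CPM for Igf2 (SD, n = 3). Xist, the noncoding RNA that silences an X chromosome, had 547, 921 and 158 CPM in iPS SSEA1- cells, against 738, 989.8 and 566 CPM in d12 SSEA1- cells (log2 fold change -0.50 ± 0.69, adjusted p = 0.73), and 17.1, 48.2 and 12.1 CPM in iPS SSEA1+ cells. Replicate 3 had the lowest iPS SSEA1- value in each of these genes. Of 29 tested interferon and antigen presentation genes 27 were highest in iPS replicate 2, 0 rose and 1 fell. The gene that fell was Oas2, an antiviral oligoadenylate synthetase, with 1.24, 4.23 and 1.71 CPM in iPS SSEA1- cells, against 10, 7.84 and 7.03 CPM in d12 SSEA1- cells (log2 fold change -1.80 ± 0.56, adjusted p = 0.043), and all 3 iPS values lay below the d12 values. Oas2 was not called without iPS SSEA1- replicate 1 or 3 or any 1 of the 3 d12 SSEA1- libraries (adjusted p = 0.073 to 0.16).

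The same step was set against that of SSEA1+ cells, which shares no library with it. In SSEA1+ cells 648 genes rose (3.74%) and 997 fell (5.75%) between day 12 and the iPS stage. Of the genes that rose in SSEA1- cells 216 also rose in SSEA1+ cells, which is 26.4% of the SSEA1- list and 33.3% of the SSEA1+ list. Of the genes that fell, 195 did so in both, which is 45.0% and 19.6% of the lists. The difference of the steps was tested as an interaction, and 250 genes had a higher (1.44%) and 71 a lower (0.41%) fold change in SSEA1- than in SSEA1+ cells. With replicate numbers as a block these counts were 370 and 127. Without iPS SSEA1- replicate 1, 2 or 3 they were 173 and 40, 111 and 51, and 457 and 188.

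Of the 12 largest decreases 1 had a called difference, and of the 12 largest increases none. Tmprss5 fell further in SSEA1- cells than in SSEA1+ cells (log2 fold change -2.49 ± 0.66, adjusted p = 0.013), and the difference was called (log2 difference -4.42 ± 0.97, adjusted p = 0.016). Its levels were 1.91, 3.18 and 4.83 CPM in iPS SSEA1+ cells and 3.24, 18 and 34.7 CPM in d12 SSEA1+ cells. Myc fell less in SSEA1- than in SSEA1+ cells, where it had 3.03, 5.07 and 7.34 CPM at the iPS stage, against 271, 735 and 651 CPM at day 12 (log2 fold change -6.74 ± 0.50, adjusted p = 4.9e-09; log2 difference 3.71 ± 0.57, adjusted p = 0.00084). Spry4 did the same, with 7.06, 12.6 and 18.1 CPM in iPS SSEA1+ cells, against 74, 99.2 and 117 CPM in d12 SSEA1+ cells (log2 fold change -2.94 ± 0.25, adjusted p = 3.9e-08; log2 difference 1.59 ± 0.32, adjusted p = 0.01). Tek, which was called lower in SSEA1- cells, was not called in SSEA1+ cells (log2 fold change -0.67 ± 0.38, adjusted p = 0.26), and the difference was called (log2 difference -2.28 ± 0.53, adjusted p = 0.025). Fgf15 rose in SSEA1- cells and not in SSEA1+ cells (log2 fold change 0.94 ± 0.62, adjusted p = 0.36; log2 difference 4.12 ± 0.93, adjusted p = 0.024), and so did Mthfd2 (log2 fold change 0.23 ± 0.35, adjusted p = 0.73; log2 difference 1.97 ± 0.50, adjusted p = 0.037). Oas2 (log2 difference -3.62 ± 0.80, adjusted p = 0.017), Golm1 (log2 difference -1.24 ± 0.32, adjusted p = 0.043) and Etl4 (log2 difference -1.12 ± 0.28, adjusted p = 0.038) also had called differences. When any 1 of the 12 iPS and day 12 libraries of both fractions was left out, the differences of Myc and Spry4 were called each time. That of Tmprss5 was not called without d12 SSEA1- replicate 3 or iPS SSEA1+ replicate 3 (adjusted p = 0.051 and 0.059). That of Oas2 was not called without iPS SSEA1- replicate 1 or d12 SSEA1- replicate 1 or iPS SSEA1+ replicate 3 (adjusted p = 0.0505 to 0.061). That of Tek was not called without iPS SSEA1- replicate 1 or d12 SSEA1- replicate 1 or 3 or iPS SSEA1+ replicate 1 or 3 or d12 SSEA1+ replicate 1 (adjusted p = 0.051 to 0.069). That of Fgf15 was not called without iPS SSEA1- replicate 1 or d12 SSEA1- replicate 1 or 3 or iPS SSEA1+ replicate 2 or d12 SSEA1+ replicate 1 (adjusted p = 0.053 to 0.084). That of Mthfd2 was not called without iPS SSEA1- replicate 2 or 3 or d12 SSEA1- replicate 1 or 3 or iPS SSEA1+ replicate 2 or 3 or d12 SSEA1+ replicate 1 (adjusted p = 0.058 to 0.12). That of Golm1 was not called without iPS SSEA1- replicate 2 or d12 SSEA1- replicate 1 or 3 or iPS SSEA1+ replicate 1 or 3 or d12 SSEA1+ replicate 2 or 3 (adjusted p = 0.064 to 0.13). That of Etl4 was not called without iPS SSEA1- replicate 1 or 3 or d12 SSEA1- replicate 1 or 3 or iPS SSEA1+ replicate 1 or 2 or 3 or d12 SSEA1+ replicate 1 or 2 (adjusted p = 0.052 to 0.14). For Nanog and Otx2 no difference was called: for Nanog the log2 difference was 1.72 ± 1.04 (adjusted p = 0.51), and for Otx2 the log2 difference was 1.98 ± 0.69 (adjusted p = 0.15). A p that misses the threshold does not show that the steps were alike. The fractions also started from different levels at day 12. Genes that rose in SSEA1- cells had a median log2(CPM + 1) of 0.74 in d12 SSEA1- and 2.18 in d12 SSEA1+ cells. For genes that fell it was 5.12 and 3.74. Both sets were chosen by their SSEA1- levels. The SSEA1+ levels of Tek, Fgf15, Mthfd2, Oas2, Golm1 and Etl4 are not reported here.

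**Figure D5:**
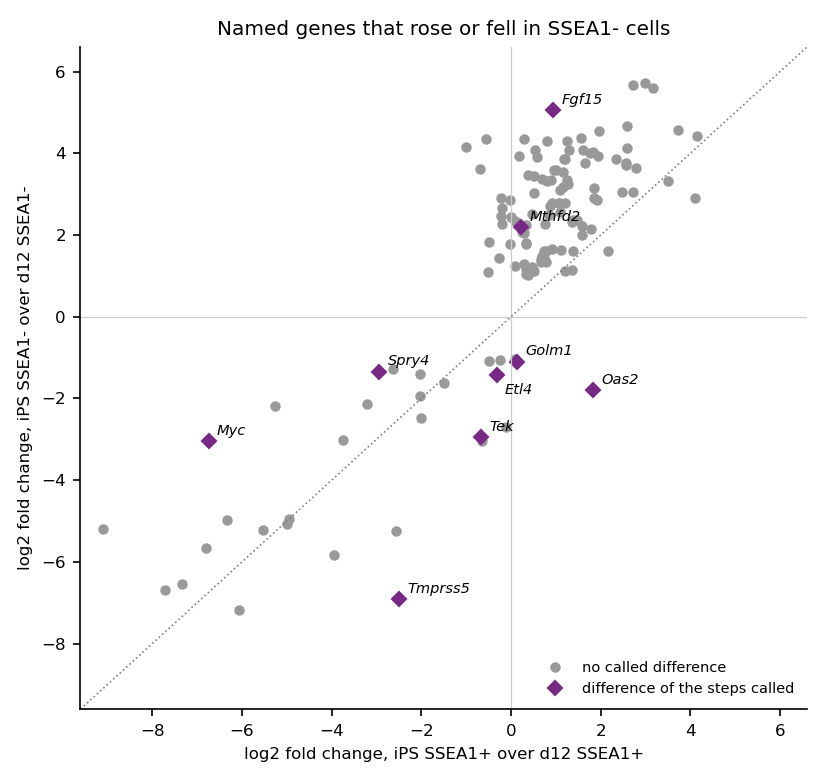
Log2 fold change of iPS over d12 in SSEA1- cells (vertical) and in SSEA1+ cells (horizontal) for the 136 named genes that were called in SSEA1- cells; the dotted line marks equal steps. Diamonds are the 9 genes whose steps differed by the interaction test, among them Myc at -3.04 and -6.74 and Tmprss5 at -6.91 and -2.49.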

How the data were processed

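Per the labels' protocols, poly-A RNA of sorted cells was made into strand-specific libraries. The authors deposited read counts per Ensembl gene. The submitters' processing notes list STAR 2.3.0, Picard 1.100, HTSeq 0.6.0 and the mouse build mm9. The names of the deposited files mark the counting as not stranded, so a gene and its antisense partner cannot be told apart. Summary rows that name no gene were left out. Symbols came from GENCODE and covered 32860 of 37583 gene IDs. Promoter sequences came from RefSeq (GRCm38.p6).

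From the deposited counts, edgeR 4.0.16 (R 4.3.3) fitted a mean per group over all 33 libraries, with TMM scaling, filterByExpr and 22 residual degrees of freedom. A call needed a Benjamini-Hochberg adjusted p under 0.05 over 17326 genes and at least a 2-fold change. The 6 libraries held 17.17 to 28.36 M counts in genes. The script was tested on simulated data. These gave a gene the same spread in every group, so the test says nothing about the uneven iPS SSEA1- libraries. Libraries of a group differed beyond sampling noise (chi-square per degree of freedom at least 13.1). Same-numbered libraries deviated together (r = 0.378, 0.447 and 0.271 for replicates 1, 2 and 3; -0.439 to 0.063 for other pairs), which came from the data and not from the labels, so a fit with the replicate number as a block was made. Other alternatives were DESeq2 1.42.0, its size factors, limma 3.58.1 voom with sample quality weights, other filters, the 6 libraries alone, and each library left out.

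Named were the 12 largest increases and decreases among called genes of at least 10 CPM with groups that did not overlap, predicted genes left out. Added were up to 5 members of each list by p and 3 by level, and 21 fixed genes. The 8 uneven genes had the widest range over the iPS libraries, with a highest library of at least 50 CPM. The 8 even genes had the highest iPS mean among called genes with groups apart and a range under 0.5. The genes and the 45 lists were chosen with earlier results of these data known. Hoxc9, Peg10 and list members named only because few were called were chosen after their values were seen. Some list members are not reported here.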

Additional observations from a re-analysis of the deposited data

Results flagged for a closer look

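Changes between day 12 and the iPS stage that differed between SSEA1- and SSEA1+ cells by the interaction test were named for 9 genes. The log2 fold change was lower in SSEA1- cells for Tmprss5 (log2 difference -4.42 ± 0.97, adjusted p = 0.016), Oas2 (log2 difference -3.62 ± 0.80, adjusted p = 0.017), Tek (log2 difference -2.28 ± 0.53, adjusted p = 0.025), Golm1 (log2 difference -1.24 ± 0.32, adjusted p = 0.043) and Etl4 (log2 difference -1.12 ± 0.28, adjusted p = 0.038). It was higher in SSEA1- cells for Fgf15 (log2 difference 4.12 ± 0.93, adjusted p = 0.024), Myc (log2 difference 3.71 ± 0.57, adjusted p = 0.00084), Mthfd2 (log2 difference 1.97 ± 0.50, adjusted p = 0.037) and Spry4 (log2 difference 1.59 ± 0.32, adjusted p = 0.01). Myc and Spry4 fell in both fractions, and fell less in SSEA1- cells. With n = 3 in every group, single libraries were not checked for outliers by their gap to the others.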

How the results depend on the processing

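Of the 817 increases and 433 decreases, the fit of the 6 libraries alone gave 44 and 152. DESeq2 gave 1012 and 539, limma voom with sample quality weights 655 and 298, and the replicate block 1061 and 554. Leaving out 1 library gave 232 to 884 increases and 246 to 478 decreases. Of distinct list members, 111 rose and 14 fell. The fit of the 6 libraries alone gave 5 and 8, limma voom 73 higher, the removal of replicate 2 of both groups 73 higher, DESeq2 24 lower, and single libraries left out 26 to 106 higher and 9 to 25 lower. For the difference of the steps, 250 larger and 71 smaller, the replicate block gave 370 and 127, and single libraries left out 102 to 457 and 33 to 188. The cause was not tested. The block ended the calls of Esrrb and Utf1, added Dnmt3b, Gata4 and L1td1, and changed no other call of a gene named with a fold change. The direction of 6 named genes turned. Pou5f1 was called lower with limma voom (log2 fold change -1.9), and single libraries left out gave -2.21 (called, without iPS SSEA1- replicate 3) to 1.01. Utf1 had -0.26 with limma voom and -1.05 (without iPS SSEA1- replicate 3) to 3.36. The other 4 were called in no fit. Cer1 had -1.56 without replicate 2 of both groups, and -1.43 to 2.73 with single libraries left out. Thy1 had -0.44 to 0.31 in the same way. Lyz2 had -1.36 with limma voom, -0.1 with the block, -1.93 without replicate 2 of both groups, and -5.14 to 3.78 with single libraries left out. Mrc1 had -0.73 with limma voom, -2.25 without replicate 2 of both groups, and -5.56 to 5.1 with single libraries left out.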

Other observations

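Smooth muscle genes were highest in iPS replicate 3 in 11 of 12 tested members. Of them 2 rose and 0 fell. Cnn1, which encodes the smooth muscle protein calponin, had 43.3, 28.1 and 159 CPM in iPS SSEA1- cells, against 6.6, 13.1 and 11 CPM in d12 SSEA1- cells (log2 fold change 2.91 ± 0.61, adjusted p = 0.0039). Myh11, smooth muscle myosin heavy chain, had 20.3, 20.4 and 35.4 CPM in iPS SSEA1- cells, against 3.03, 7.29 and 4.56 CPM in d12 SSEA1- cells (log2 fold change 2.35 ± 0.56, adjusted p = 0.0098). In both genes every iPS SSEA1- library exceeded every d12 SSEA1- library. Myh11 was not called without d12 SSEA1- replicate 1 or 3 (adjusted p = 0.058 and 0.061). The call of Cnn1 held without any 1 of the 6 libraries. Of 22 tested Nodal, BMP and Id genes 6 rose and 0 fell, and 13 were highest in iPS replicate 3, against 42.2% of all tested genes. Of those calls, 5, 6 and 2 were called again without iPS SSEA1- replicate 1, 2 and 3, and 3, 3 and 1 without d12 SSEA1- replicate 1, 2 and 3. Without iPS replicate 3 the list had 2 increases and 1 decrease. Grem1, a secreted BMP antagonist, had 76.1, 166 and 256 CPM in iPS SSEA1- cells, against 23.3, 52.2 and 30.2 CPM in d12 SSEA1- cells (log2 fold change 2.24 ± 0.54, adjusted p = 0.01), and Bmp7, a ligand, had 49.8, 13.6 and 4.99 CPM in iPS SSEA1- cells, against 5.57, 1.1 and 1.34 CPM in d12 SSEA1- cells (log2 fold change 3.09 ± 0.82, adjusted p = 0.019). The first was highest in iPS replicate 3 and the second in iPS replicate 1. Grem1 was not called without iPS SSEA1- replicate 3 or d12 SSEA1- replicate 1 or 3 (adjusted p = 0.052 to 0.065). Bmp7 was not called without iPS SSEA1- replicate 1 or d12 SSEA1- replicate 2 or 3 (adjusted p = 0.081 to 0.18).

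Of 19 tested genes of ATF4 signalling and the unfolded protein response 4 rose (Ddit3, Chac1, Asns and Mthfd2) and 1 fell (Slc7a11). Of the 4, 4, 4 and 1 were called again without iPS SSEA1- replicate 1, 2 and 3, and 1, 2 and 1 without d12 SSEA1- replicate 1, 2 and 3. Asns, asparagine synthetase, had 97.2, 164 and 371 CPM in iPS SSEA1- cells, against 76.8, 95.9 and 62.5 CPM in d12 SSEA1- cells (log2 fold change 1.43 ± 0.36, adjusted p = 0.014). Ddit3, the stress factor CHOP, had 22.7, 20.6 and 35.4 CPM in iPS SSEA1- cells, against 10.4, 12.6 and 12.4 CPM in d12 SSEA1- cells (log2 fold change 1.15 ± 0.31, adjusted p = 0.022). Both were highest in iPS replicate 3. Asns was not called without iPS SSEA1- replicate 3 or d12 SSEA1- replicate 1 or 3 (adjusted p = 0.057 to 0.21). Ddit3 was not called without iPS SSEA1- replicate 3 or any 1 of the 3 d12 SSEA1- libraries (adjusted p = 0.052 to 0.14). Among limb and positional genes, Lmx1b and Msx2 rose. Msx2, a homeobox factor downstream of BMP, had 9.06, 9.48 and 8.12 CPM in iPS SSEA1- cells, against 2.48, 2.42 and 2.83 CPM in d12 SSEA1- cells (log2 fold change 1.78 ± 0.48, adjusted p = 0.02), and was alike in the 3 iPS libraries. Msx2 was not called without any 1 of the 3 d12 SSEA1- libraries (adjusted p = 0.064 to 0.075). Of 28 tested integrins and laminins 3 rose (Itga5, Itga9 and Itgb7) and 1 fell (Itgb4). Of the 3, 2, 2 and 1 were called again without iPS SSEA1- replicate 1, 2 and 3, and 1, 2 and 1 without d12 SSEA1- replicate 1, 2 and 3.

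Among the lists with 1 or fewer calls in either direction were neural crest (Mitf rose, of 10 tested), DNA methylation (Dnmt3l rose, of 13), Polycomb (Mtf2 rose, of 18), LIF and STAT3 (Pim1 rose, of 11), chemokines and inflammation (Nfkbia fell, of 20), DNA replication (Cdc6 rose, of 20) and mitosis (Bub1 rose, of 20). Pim1 was called without any 1 of the 6 libraries, and the other 6 genes were not called without iPS replicate 3 or without d12 replicate 3. Of 12 tested endothelial genes Pecam1 and Vwf rose and Tek fell, and of 13 tested threonine, serine and one-carbon genes Gldc, Mthfd2 and Amt rose. Without iPS replicate 3, Pecam1 and Vwf were not called, and 1 of the 3 one-carbon genes was. The AP-1 and immediate early, X inactivation and mesenchymal transcription factor lists gave 0 calls by edgeR among 18, 4 and 11 tested members. Their median log2 fold changes were -0.65, 0.03 and 1.06, against 0.106 for all tested genes, so 0 calls does not show that the lists were unchanged. At an unadjusted p under 0.05 these lists had 1, 1 and 4 higher and 2, 0 and 0 lower members. DESeq2 and limma voom called 0, 0 and 1, and 0, 0 and 1 of them higher and 0 lower. The mesenchymal transcription factor list had 2 increases with replicate numbers as a block, 1 without iPS replicate 1 and 2 without d12 replicate 2, and the AP-1 list had 1 decrease without iPS replicate 1.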
